A study of Mus musculus with 5 samples.

Results

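The replication-dependent histone genes are the protein-coding mouse genes whose symbol starts with Hist1h, Hist2h, Hist3h or Hist4h, and 67 of the 21951 protein-coding genes of the GENCODE annotation of GRCm38 met that rule. They comprised 6 genes of the linker histone H1, 18 of H2A, 18 of H2B, 12 of H3 and 13 of H4. Acetylated histones were profiled by ChIPseq in CD8+ T cells driven toward a memory type with IL-15, and the broad peaks of 5 libraries were scored here, 2 from WT and 3 from TPdh-/- cells. WT cells carried the intact gene, while in TPdh-/- cells a floxed Pdha1, which encodes a subunit of pyruvate dehydrogenase, was deleted by Cre under the CD4 promoter, which acts in T cells from the thymus on. Both groups were OT-I cells, which share 1 transgenic T cell receptor, and both were activated with its peptide before the culture with IL-15. The sample labels name acetylated lysine 18 and acetylated histones as the target of the antibody, so which acetylated residue was recovered is not settled by them.

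Replication-dependent histone genes supply the histones that package new DNA in S phase. Their mRNAs are usually not polyadenylated and end instead in a stem-loop that is bound by SLBP, and their transcription is switched on with entry into S phase through NPAT. Most are very short, lack introns and lie in clusters, and many H2A and H2B genes face each other across a shared promoter. Acetylation of histones near a start site is a usual mark of active promoters, and a peak reports acetylated nucleosomes at the gene and not the amount of histone protein made from it.

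The members lay in 4 places. Chromosome 13 held 54, in a first subcluster of 23 genes (chr13:21715763-22043676) and a second of 31 genes (chr13:23531050-23934851), separated by over 200000 bp. Chromosome 3 held 10 (chr3:96219865-96270132), chromosome 11 held 2 and chromosome 6 held 1. A gene was called where a peak lay within 1000 bp of it, and a peak near several genes was counted once when peaks were counted. Lists differed in length, from 4920 peaks in TPdh-/- replicate 1 and 5419 in TPdh-/- replicate 2 to 8859 in WT replicate 2, 9418 in TPdh-/- replicate 3 and 15962 in WT replicate 1, and the order of the libraries by called histone genes was the same as their order by list length. The lists give no read numbers, so depth is unknown and counting error could not be computed. Among all protein-coding genes, 45.9 and 28.5% had a peak in WT and 17.8, 19.1 and 31.4% in TPdh-/- replicates 1 to 3. Of 8 T cell markers, 8, 4, 2, 4 and 4 had a peak in WT replicates 1 and 2 and TPdh-/- replicates 1 to 3, with Lck (percentiles from 8.27 to 55.3) and Cd8b1 (from 14.6 to 68.7) called in all 5 libraries, against 2, 1, 1, 1 and 2 of 5 B cell markers, of which Cd79a was also called in all 5 libraries, at percentiles from 60.0 to 83.8, 1, 1, 0, 0 and 0 of 5 myeloid markers and 2, 1, 0, 0 and 1 of 3 helper T cell markers.

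The genes of linker histone H1, which binds DNA between nucleosomes, included 2 that were called in every library and 2 that were called in none. Their promoters are shown to compare called and uncalled members, from 250 bases before to 50 after the RefSeq start site (GRCm38.p6), 5′ to 3′ along the gene. Capitals mark the CCAAT box (letters CCAAT or ATTGG), the TATA box (TATAAA) and the H1 box (AAACACA), a motif known from H1 promoters.
Hist1h1c, chr13:23738557-23738856, plus strand: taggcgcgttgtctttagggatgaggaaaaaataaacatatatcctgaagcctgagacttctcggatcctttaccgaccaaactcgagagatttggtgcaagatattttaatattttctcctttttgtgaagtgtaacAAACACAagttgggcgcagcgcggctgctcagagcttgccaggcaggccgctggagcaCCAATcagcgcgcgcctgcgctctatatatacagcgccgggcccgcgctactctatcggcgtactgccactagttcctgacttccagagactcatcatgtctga
Hist1h1e, chr13:23622509-23622808, minus strand: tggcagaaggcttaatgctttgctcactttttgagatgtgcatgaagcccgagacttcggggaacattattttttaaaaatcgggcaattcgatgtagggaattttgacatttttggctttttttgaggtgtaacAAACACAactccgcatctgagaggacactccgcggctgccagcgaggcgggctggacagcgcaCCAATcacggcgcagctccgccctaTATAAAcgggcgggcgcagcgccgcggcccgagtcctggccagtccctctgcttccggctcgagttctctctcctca
Hist1h1b, chr13:21780576-21780875, minus strand: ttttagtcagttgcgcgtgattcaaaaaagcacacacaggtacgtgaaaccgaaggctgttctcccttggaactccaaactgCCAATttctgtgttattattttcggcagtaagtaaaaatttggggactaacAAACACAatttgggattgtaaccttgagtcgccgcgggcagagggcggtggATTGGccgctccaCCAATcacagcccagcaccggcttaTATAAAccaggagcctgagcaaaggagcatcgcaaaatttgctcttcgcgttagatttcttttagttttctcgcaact
Hist1h1a, chr13:23763418-23763717, plus strand: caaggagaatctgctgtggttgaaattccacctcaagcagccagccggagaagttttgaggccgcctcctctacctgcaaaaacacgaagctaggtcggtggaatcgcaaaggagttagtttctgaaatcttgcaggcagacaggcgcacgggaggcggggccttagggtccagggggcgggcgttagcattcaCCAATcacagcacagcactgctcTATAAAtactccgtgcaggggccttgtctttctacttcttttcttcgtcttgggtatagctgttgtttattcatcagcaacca
Hist1h1c and Hist1h1e, the first pair, had a peak in all 5 libraries. Hist1h1b and Hist1h1a, the second pair, had none in any. The promoters of Hist1h1c, Hist1h1e and Hist1h1b shared an H1 box, at −112, −115 and −117 relative to the start site, and a CCAAT box closer to it, so these letters were present in both called and uncalled genes. No match to the H1 box was found in the Hist1h1a window.

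Hist1h1c (ENSMUSG00000036181.2, chr13:23738808-23740367) had the highest mean percentile of the members (93.4). Its rank by −log10 q within each list was 1378 and 287 in WT replicates 1 and 2, and 81, 455 and 1033 in TPdh-/- replicates 1, 2 and 3. Expressed as a percentile of the list, where 100 is the most significant peak, these ranks stood at 91.4 and 96.8 in WT and at 98.4, 91.6 and 89.0 in TPdh-/-. The groups overlapped, with the highest and the lowest percentile both in TPdh-/- libraries. Fold enrichment over the background that the peak caller estimated was 2.24 and 2.58 in WT and 3.07, 2.68 and 2.38 in TPdh-/-. The WT peaks were 3127 and 2920 bp wide and those of TPdh-/- 2606, 853 and 3048 bp, so TPdh-/- replicate 2 alone had a narrow one.

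Hist1h1e (ENSMUSG00000051627.3, chr13:23620629-23622558) had WT peaks of 3041 and 2722 bp and TPdh-/- peaks of 2653, 2476 and 2828 bp. They lay at percentiles 72.2 and 52.4 in WT and 69.8, 40.3 and 65.7 in TPdh-/-, with folds of 2.22, 2.40, 2.57, 2.26 and 2.36 in the same order. These were wide peaks of middling rank, in which the groups again overlapped. Hist1h1d had a peak in WT replicate 1 alone, 3769 bp wide at percentile 62.5, that also covered Hist1h4f. Hist1h1t, the H1 gene of the testis, was near a peak of WT replicate 1 at percentile 35.0, which it shared with Hist1h4c. All 6 H1 genes had entirely unique sequence in the 1000 bp upstream of the start site, and Hist1h1a and Hist1h1b had entirely unique sequence in the first 400 bp as well, in windows of 51 bases, the read length that the labels give.

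Across all members, a peak was called at 41 of 67 genes in WT replicate 1 (61.2%) and at 22 (32.8%) in WT replicate 2. TPdh-/- replicates 1, 2 and 3 had 13 (19.4%), 18 (26.9%) and 24 (35.8%). Of all protein-coding genes, 45.9, 28.5, 17.8, 19.1 and 31.4% were called in the same order of libraries. The share of members was above that of all genes in each library, by most in WT replicate 1 and by least in TPdh-/- replicate 1. Because the annotated genes are short, the comparison was repeated with peaks within 1000 bp of the start site alone, a rule added after the data were seen. Then 59.7, 32.8, 19.4, 26.9 and 35.8% of members were called, against 36.2, 20.3, 12.6, 13.8 and 23.4% of all protein-coding genes.

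**Figure D1:**
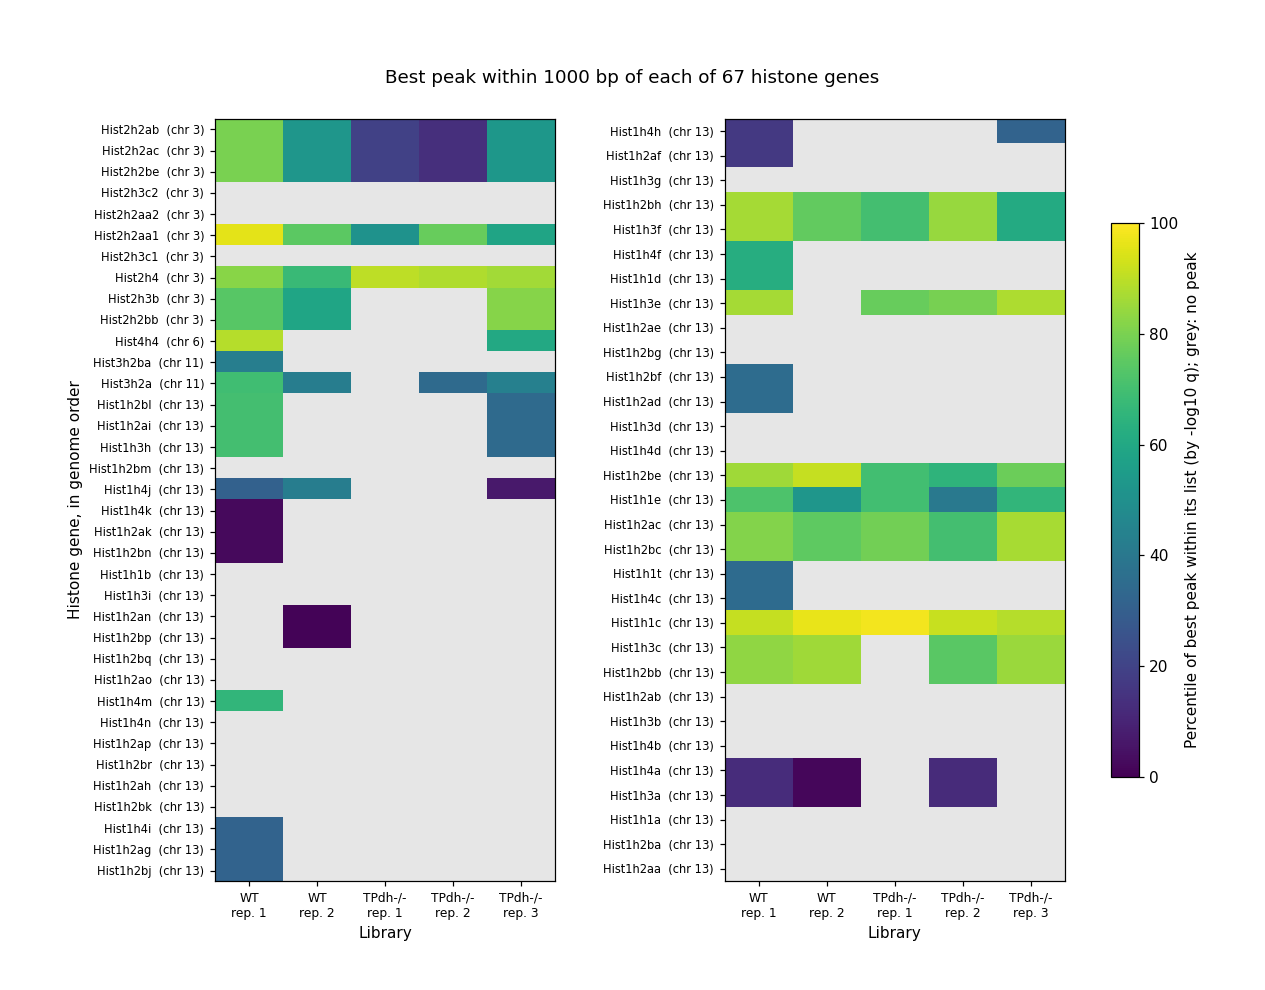
Each row is 1 of the 67 histone genes in genome order and each column 1 library. Colour gives the percentile of the best peak within 1000 bp, by −log10 q within that library's list, and grey marks no peak. Rows of full colour, such as Hist1h1c and Hist2h4, were called in all 5 libraries, and 24 rows are grey throughout.

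In all, 12 members (17.9%) had a peak in all 5 libraries, where 12.8% of protein-coding genes did. They were Hist2h2ab, Hist2h2ac, Hist2h2be, Hist2h2aa1 and Hist2h4 on chromosome 3 and Hist1h2bh, Hist1h3f, Hist1h2be, Hist1h1e, Hist1h2ac, Hist1h2bc and Hist1h1c in the second subcluster of chromosome 13. A further 24 members (35.8%) had no peak in any library, against 52.3% of protein-coding genes. Of these, 3 were on chromosome 3, Hist2h3c2, Hist2h2aa2 and Hist2h3c1. The first subcluster of chromosome 13 held 10, Hist1h2bm, Hist1h1b, Hist1h3i, Hist1h2bq, Hist1h2ao, Hist1h4n, Hist1h2ap, Hist1h2br, Hist1h2ah and Hist1h2bk. The second held 11, Hist1h3g, Hist1h2ae, Hist1h2bg, Hist1h3d, Hist1h4d, Hist1h2ab, Hist1h3b, Hist1h4b, Hist1h1a, Hist1h2ba and Hist1h2aa. WT replicate 1, the longest list, was the only library with a peak at 15 members (22.4%), where the background was 11.4%. Members that share a peak were counted separately here, such as Hist1h4k, Hist1h2ak and Hist1h2bn, so these calls are not independent. No member had a peak in both WT libraries and in no TPdh-/- library, a pattern found at 2.38% of protein-coding genes. Likewise 0 members had a peak in all 3 TPdh-/- libraries and in neither WT library, where the background was also 0%.

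Merged across libraries, the peaks formed 26 regions, of which 8 had a peak in all 5 libraries and 8 in a single library. The median over regions of the mean percentile was 73.6 for those in all 5 libraries and 35.2 for those in 1. A region in all 5 libraries had to pass the cutoff of the shortest list as well, so these medians are not independent of the calls. Of the 26 regions, 15 had peaks within 1000 bp of more than 1 member, and a peak lay within 1000 bp of up to 3. Such a peak need not touch each of these members. After Hist1h1c, the highest mean percentiles over the libraries that listed a region were at Hist2h4 (82.8), Hist1h3e (82.6), the region of Hist1h3c and Hist1h2bb (82.1) and the region of Hist1h2ac and Hist1h2bc (78.5).

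Hist1h3e, an H3 gene at chr13:23561534-23562369, was the member called in all 3 TPdh-/- libraries and in 1 WT library. Its fold was 2.91 in WT replicate 1 and 3.11, 3.12 and 3.18 in TPdh-/- replicates 1, 2 and 3, at percentiles 86.4, 76.8, 79.3 and 87.7. WT replicate 2 listed no peak there. The region of Hist1h3c and Hist1h2bb was called in all libraries but TPdh-/- replicate 1, at percentiles 83.2 and 85.7 in WT and 74.3 and 85.0 in TPdh-/- replicates 2 and 3. These were narrow peaks, 625 to 829 bp wide.

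Other regions of chromosome 13 in all 5 libraries lay at Hist1h2bh, Hist1h3f and Hist1h2be. The peak within 1000 bp of Hist1h2bh (H2B) and Hist1h3f (H3) had folds of 2.70 and 3.03 in WT and 2.90, 3.11 and 2.51 in TPdh-/-. Its percentiles were 86.7 and 76.1 in WT and 70.3, 84.5 and 61.2 in TPdh-/-, so the groups overlapped. In WT replicate 2 and TPdh-/- replicates 1 and 2 it held the start site of Hist1h3f alone. Hist1h2be, an H2B gene, is annotated over 37455 bp and held 3 regions, 1 of them the region of Hist1h1e. The region over its stem-loop (chr13:23585531-23585546) had percentiles of 54.4 and 17.5 in WT and 11.7 and 45.5 in TPdh-/- replicates 2 and 3. TPdh-/- replicate 1 had no peak at the stem-loop, so Hist1h2be was called in that library through its other regions alone. The region inside the annotated span of Hist1h2be that was called in all libraries (chr13:23592475-23594892) had percentiles of 85.9 and 91.0 in WT and 36.6, 65.0 and 77.6 in TPdh-/-. Both WT percentiles lay above the 3 TPdh-/- percentiles there, a difference seen after the values were known and not tested, while the folds overlapped, at 2.07 and 2.23 in WT and 2.03, 2.18 and 2.17 in TPdh-/-. At the other end, Hist1h4a and Hist1h3a shared a weak peak in both WT libraries and TPdh-/- replicate 2, at percentiles 12.8, 1.77 and 12.4, and Hist1h2an and Hist1h2bp had one in WT replicate 2 alone at percentile 1.06.

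Histone genes of the second subcluster were called more often than those of the first in each of the 5 libraries. In the second subcluster 20 and 11 of 31 genes were called in WT and 8, 12 and 11 in TPdh-/- replicates 1, 2 and 3. In the first, 11 and 3 of 23 were called in WT and 0, 0 and 4 in TPdh-/-. The share of all protein-coding genes was 45.9 and 28.5% in WT and 17.8, 19.1 and 31.4% in TPdh-/-. No gene of the first subcluster was called in all 5 libraries. The one called in most, Hist1h4j, had a peak in both WT libraries and TPdh-/- replicate 3, at percentiles 30.9, 42.5 and 7.01. The first subcluster also had less unique sequence, with a median of 21.3% of windows unique in the first 400 bp of its genes against 51.0% in the second, and the part of this in the contrast between subclusters was not tested.

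**Figure D2:**
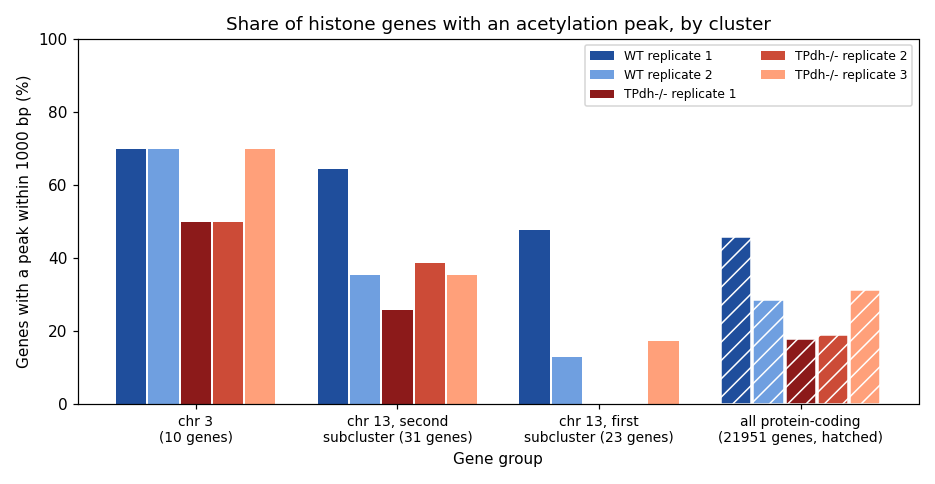
Bars give the share of genes with a peak within 1000 bp, in percent, for the 5 libraries in each of 3 histone gene clusters and, hatched, for all 21951 protein-coding genes. Bars of the chromosome 3 cluster stand at 50 to 70%, above the hatched bar of every library, and 2 TPdh-/- libraries have no bar in the first subcluster of chromosome 13.

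The chromosome 3 cluster was called most evenly, at 7 and 7 of 10 genes in WT and 5, 5 and 7 in TPdh-/-. Hist2h4, an H4 gene at chr3:96261682-96263311, had percentiles of 82.1 and 67.9 in WT and 90.2, 87.9 and 86.1 in TPdh-/-. Each TPdh-/- library placed its peak there higher in its own list than either WT library did. Fold at Hist2h4 was 2.12 and 2.25 in WT and 2.79, 2.57 and 2.41 in TPdh-/-, which likewise did not overlap. A single region among 26 was singled out here after its values were seen, and no test was made. The WT peaks were 2002 and 1529 bp wide and those of TPdh-/- 703, 1605 and 1942 bp. The peak of TPdh-/- replicate 1 lay upstream of the gene, while the others held its start site. The list medians of fold ran the same way, at 2.40 and 2.54 in WT and 2.65, 2.58 and 2.48 in TPdh-/-, apart from TPdh-/- replicate 3, which was below WT replicate 2.

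Hist2h2aa1, an H2A gene at chr3:96245497-96246082, had percentiles of 96.1 and 74.6 in WT and 50.9, 76.7 and 58.4 in TPdh-/-. Its folds were 2.98, 2.97, 2.69, 2.90 and 2.55 in that order. In the first 400 bp of Hist2h2aa1, 11.3% of windows were unique, and 0% in its neighbour Hist2h2aa2, which had no peak. Reads within the repeated windows cannot be assigned to 1 copy, so which copy carried acetylation there cannot be told apart. The called peaks of Hist2h2aa1 lay upstream of its start site in every library. In the 1000 bp upstream, 82.2% of windows were unique for Hist2h2aa1 and 80.9% for Hist2h2aa2. Hist2h3c1 and Hist2h3c2, the H3 genes beside these copies, had 5.50 and 1.75% unique windows in the first 400 bp and no peak. One peak covered Hist2h2ab, Hist2h2ac and Hist2h2be, with percentiles of 80.0 and 52.7 in WT and 19.3, 13.5 and 52.7 in TPdh-/-. Hist2h3b and Hist2h2bb shared a peak in both WT libraries and TPdh-/- replicate 3, at percentiles 74.2, 58.8 and 82.0.

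The remaining members outside chromosome 13 were called less often. Hist4h4, the single gene on chromosome 6, had a peak in WT replicate 1 (percentile 88.7, fold 2.51) and in TPdh-/- replicate 3 (percentile 60.5, fold 2.35). Hist3h2a on chromosome 11 had one in every library but TPdh-/- replicate 1, at percentiles 69.3 and 42.5 in WT and 34.5 and 43.7 in TPdh-/- replicates 2 and 3. That peak also covered the pseudogene Hist3h2bb-ps. Its neighbour Hist3h2ba was called in WT replicate 1 alone, at percentile 42.9.

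**Figure D3:**
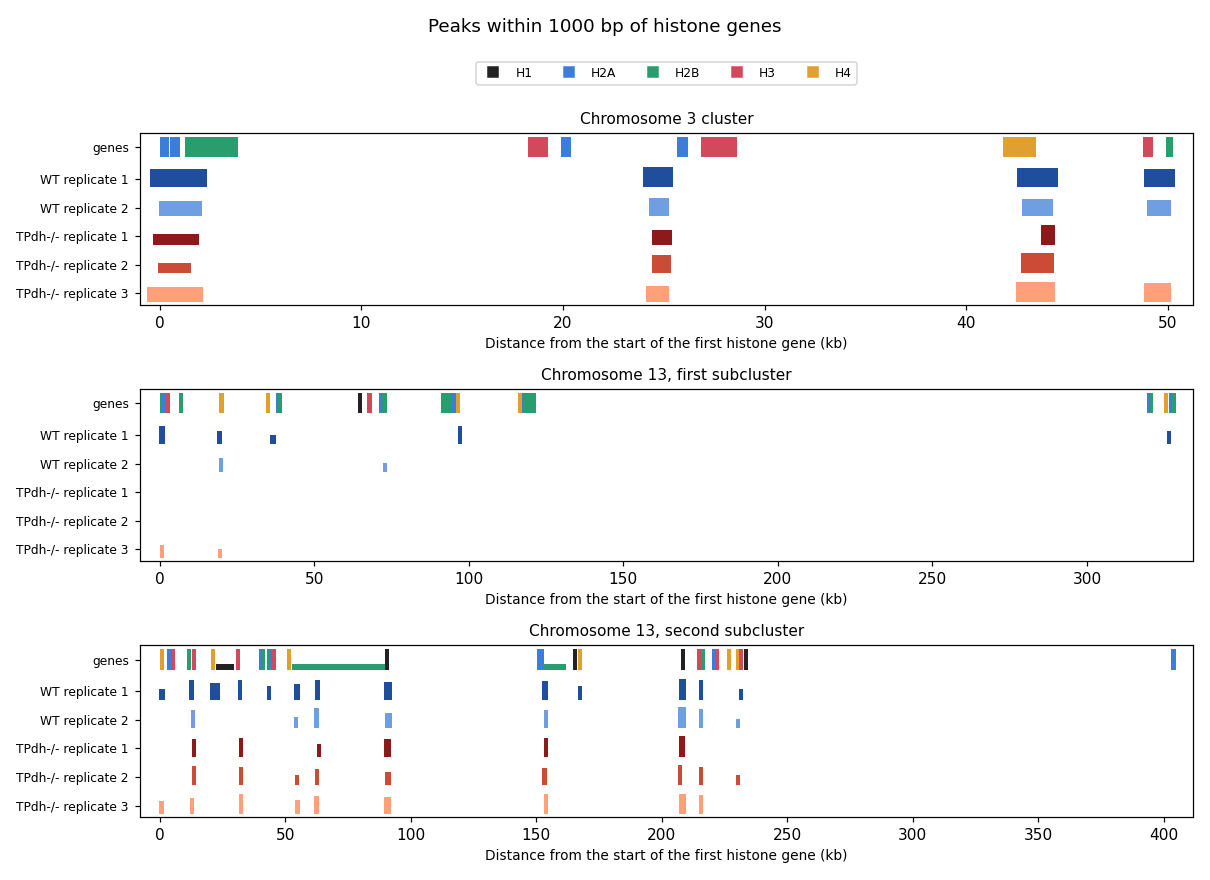
Histone genes (top row of each panel, coloured by histone type, with genes of 5 kb or longer drawn thin) and the peaks within 1000 bp of them in each library, against distance in kb from the first gene of the cluster. Peak bars are taller for a higher percentile within the list, and very short features are widened to stay visible. Peaks recur at the same places across libraries in the chromosome 3 cluster and the second subcluster of chromosome 13, while the first subcluster has no peak in TPdh-/- replicates 1 and 2.

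By histone type, H2A genes were called at 10 and 6 of 18 in WT and 4, 5 and 6 in TPdh-/-. H2B genes were called at 11 and 7 of 18 in WT and 4, 5 and 7 in TPdh-/-. H3 genes had 6 and 4 of 12 in WT and 2, 4 and 5 in TPdh-/-, and H4 genes 10 and 3 of 13 in WT and 1, 2 and 4 in TPdh-/-. The H4 genes thus went from 10 called in WT replicate 1 to at most 4 in any other library. WT replicate 1 also had the highest share of all protein-coding genes, 45.9%, against 28.5% in WT replicate 2 and 17.8, 19.1 and 31.4% in TPdh-/-. The H4 peaks in WT replicate 1 had a median percentile of 33.5, against 78.7 for H3 peaks.

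In 12 cases an H2A and an H2B gene pointed away from each other with 176 to 306 bp between them, and the promoter shared by Hist1h2ac and Hist1h2bc, the highest of these pairs, is shown with its CCAAT and TATA boxes and its octamer (ATTTGCAT or ATGCAAAT), the site of POU2F1 in H2B promoters, in capitals.
Hist1h2ac, chr13:23683910-23684209, minus strand: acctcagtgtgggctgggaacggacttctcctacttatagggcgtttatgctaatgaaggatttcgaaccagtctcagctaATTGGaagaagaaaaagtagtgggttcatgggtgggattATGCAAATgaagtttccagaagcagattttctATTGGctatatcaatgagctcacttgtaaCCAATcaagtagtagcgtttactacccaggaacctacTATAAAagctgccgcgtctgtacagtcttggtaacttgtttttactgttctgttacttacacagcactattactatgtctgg
The peak within 1000 bp of this pair had percentiles of 81.4 and 75.3 in WT and 78.9, 70.0 and 86.8 in TPdh-/-, with folds of 2.28, 2.59, 2.76, 2.60 and 2.64. The groups overlapped. Only in WT replicate 1 and TPdh-/- replicate 2 did the peak hold the start sites of both genes. In TPdh-/- replicates 1 and 3 it began inside Hist1h2bc, at 23684255 and 23684211, and did not reach the promoter window shown. Hist2h2ac and Hist2h2be were the other pair with a peak in all 5 libraries, 5 pairs had a peak in 1 to 4 libraries and 5 in none. After these pairs came Hist1h2ai and Hist1h2bl (mean percentile 52.3, 2 libraries), Hist1h2ad and Hist1h2bf (35.3, 1 library) and Hist1h2ag and Hist1h2bj (31.9, 1 library). No library had a peak at a single gene of a pair, which the short gaps and the limit of 1000 bp nearly force.

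Of the 67 members, 62 had a promoter in the RefSeq table, and motifs were searched on both strands there and in all 32851 promoters of the table. A CCAAT box was found in 53 (85.5%, against 37.4% of all promoters). All H1, H2A, H2B and H3 promoters in the table had it, and 3 of 12 H4 promoters did. The TATA box was found in 35 (56.5%, against 13.6%). The octamer was found in 13 (21.0%, against 1.74%), of which 7 were H2A and 6 H2B promoters, and the H1 box in 9 (14.5%, against 7.18%), of which 5 were of the 6 H1 genes. Windows of divergent genes can overlap, so the same site can count for both genes of a pair. This held for the octamer of Hist1h2ah and Hist1h2bk, of Hist1h2ae and Hist1h2bg, and of Hist1h2aa and Hist1h2ba. By call, a CCAAT box was found in 8 of 8 promoters of genes called in all libraries, 23 of 30 in some and 22 of 24 in none, and a TATA box in 5, 16 and 14 of them. The octamer was found in 2, 3 and 8 and the H1 box in 2, 2 and 5 of the same promoters, and no difference by call was tested.

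The stem-loop at which the mRNA is cut was searched as a perfect stem of 6 base pairs led by GG, with a loop of 4 bases starting with TT, in each gene and the 150 bp after it. It was found in 63 members, in 6 forms, and is shown because it defines this class of mRNA, as DNA with the stem in capitals.
Form in 41 genes: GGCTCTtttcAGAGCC
Form in 9 genes, among them Hist1h3e: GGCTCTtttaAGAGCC
Form in 8 genes, all H4: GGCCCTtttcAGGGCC
Form in 2 genes, Hist2h4 and Hist1h4i: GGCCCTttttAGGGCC
Form in 2 genes, Hist2h2ac and Hist1h2bn: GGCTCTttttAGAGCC
Form in 2 genes, Hist1h4j and Hist1h4b: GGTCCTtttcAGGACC
Hist1h2bn held 2 matches, and none was found in Hist1h4a, Hist1h3g, Hist2h2be and Hist1h2an by this search. The annotated gene ended over 1000 bp beyond the stem-loop in 6 of the 11 genes with a match that were called in all libraries, in 4 of 29 called in some and in 3 of 23 called in none. In Hist1h2bc it ended 8246 bp beyond, in Hist1h1e 1153 and in Hist1h1c 840. Members called in all libraries had a median annotated length of 1654.5 bp, against 488 for those called in some and 529 for those called in none. A longer gene has more room for a peak within 1000 bp of it. With peaks required near the start site the number called changed by at most 1 in any library. The set called in all libraries was not recounted under that rule, and the part of gene length in it was not tested.

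Sequence that occurs once in the genome limits where a peak can be called, since the authors kept uniquely mapping reads. In the first 400 bp of the members, a median of 40.8% of the windows of 51 bases were unique, where the median protein-coding gene had 100%. In the 1000 bp upstream the median was 85.1%, against 100%. Under 50% of windows in the first 400 bp were unique in 37 of 67 members. In the 2 kb around the start site, 4 members, Hist1h2bq, Hist1h2ao, Hist1h2ap and Hist1h2br, had no unique window, so reads of that length that map uniquely would not fall there. Of the 24 members without a peak, 16 had over 50% unique windows in these 2 kb and 6 had over 90%, among them Hist1h1a, Hist1h1b and Hist1h2aa. The 57 members with over 50% were called in 68.4, 36.8, 21.1, 29.8 and 40.4% of cases in WT replicates 1 and 2 and TPdh-/- replicates 1 to 3.

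**Figure D4:**
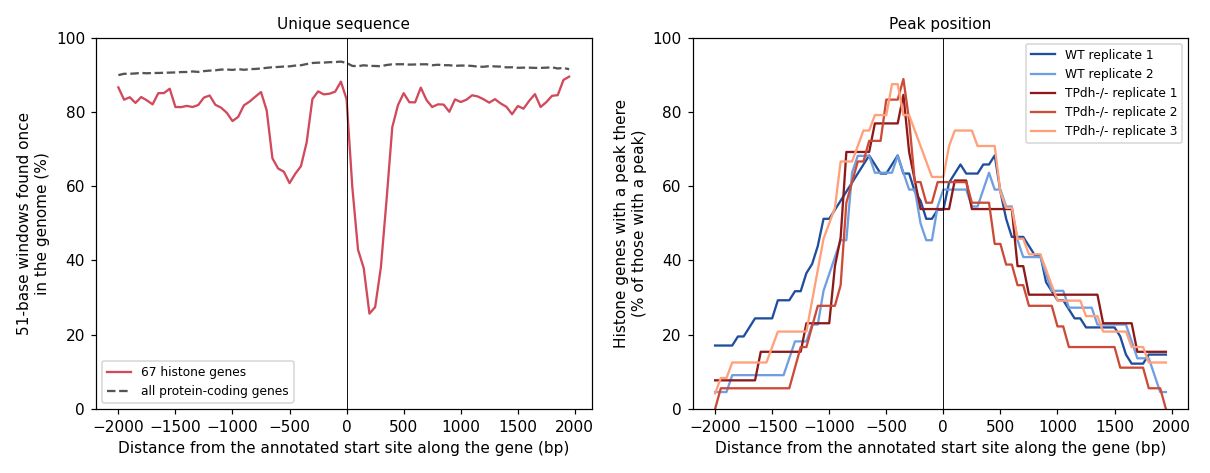
The left panel plots the share of 51-base windows found once in the genome, in percent, against distance in bp from the start site for the 67 histone genes (solid) and all protein-coding genes (dashed). The right panel plots, for the histone genes with a peak in each library, the percent that have peak sequence at that distance. The solid line on the left falls below 30% about 200 bp into the genes, and all lines on the right are higher 500 bp before the start site than 1000 bp after it.

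Peaks at members lay partly upstream. At 500 bp before the start site, 63.4 and 63.6% of the called members in WT and 76.9, 83.3 and 79.2% in TPdh-/- had peak sequence, against 23.4 to 36.9% of all called protein-coding genes. At the start site the shares were 53.7 and 59.1% in WT and 53.8, 61.1 and 62.5% in TPdh-/-, against 44.9 to 61.4% of all called genes. Called genes here are those with a peak near any part of the gene, which for long genes can lie far from the start site. In WT replicate 1 these were 10065 protein-coding genes, and 7945 had a peak within 1000 bp of the start site, against 41 and 40 members. The shares of members and of all genes are therefore not like for like. Every library had a higher share 500 bp before the start site of the members than at it, and the reverse held for all called genes in every library. The part of neighbouring genes and of repeated sequence inside the members in this was not tested.

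The members had 25 and 15 distinct peaks in WT and 9, 13 and 17 in TPdh-/-. These covered 43.9 and 21.7 kb in WT and 11.9, 17.4 and 28.3 kb in TPdh-/-. Median widths were 1661 and 1327 bp for WT and 976, 1501 and 1623 bp for TPdh-/-, above the median of all peaks of the same list in each library (1150, 987, 855, 896 and 1025.5 bp). Their median fold was 2.17 and 2.40 in WT and 2.76, 2.48 and 2.38 in TPdh-/-, and exceeded the median of its list in TPdh-/- replicate 1 alone. Their mean percentile was 61.5 and 55.8 in WT and 65.7, 57.1 and 62.1 in TPdh-/-.

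None of these summaries separated WT from TPdh-/-. On average 31.5 ± 13.4 members (SD, n = 2) were called in WT and 18.3 ± 5.51 (SD, n = 3) in TPdh-/-, a difference of 13.2 (exact permutation test, two-sided, p = 0.4, adjusted over 4 results p = 0.4). TPdh-/- replicate 3 had more called members than WT replicate 2. Distinct peaks numbered 20 ± 7.07 in WT and 13 ± 4 in TPdh-/-, and covered 32.8 ± 15.7 and 19.2 ± 8.30 kb, with p = 0.4 for both by the same exact permutation test. The mean percentile was 58.7 ± 4.07 in WT and 61.6 ± 4.33 in TPdh-/-, a difference of −2.95 (exact permutation test, p = 0.4). That difference was −9.88 with lists cut to equal length and −0.0739 without WT replicate 2, and its sign turned with peaks of −log10 q of at least 2 (2.17) or 5 (3.22). With 10 ways to place 5 libraries in groups of 2 and 3 the smallest p is 0.2, so no difference could pass 0.05. Without WT replicate 1 the difference in called members was 3.67, and with every list cut to its 4920 most significant peaks it was 2.67, from 22 and 16 members in WT and 13, 18 and 18 in TPdh-/-.

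Genes whose products act on histone genes were scored in the same way, from lists chosen with earlier results of these data known. Slbp, whose product binds the stem-loop, had a peak in all 5 libraries, with folds of 3.22 and 3.32 in WT and 3.33, 3.44 and 3.39 in TPdh-/-, at percentiles 92.4 and 88.7 in WT and 85.9, 85.3 and 92.0 in TPdh-/-. Npat, the S-phase coactivator, was called at percentiles 71.2 and 82.9 in WT and at 2.58 and 40.8 in TPdh-/- replicates 1 and 3, and had no peak in TPdh-/- replicate 2. Casp8ap2, a partner of NPAT, was called in all 5 libraries at percentiles from 6.22 to 76.1. Hinfp, which encodes a regulator of H4 genes, had a peak in both WT libraries (percentiles 77.6 and 42.1) and in none of TPdh-/-, the pattern found at 2.38% of protein-coding genes. It was the single gene of the lists of histone gene regulators, processing factors, chaperones and replication-independent histones with that pattern.

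For comparison with the lists below, 45.9 and 28.5% of all protein-coding genes were called in WT and 17.8, 19.1 and 31.4% in TPdh-/-. Of 8 regulators of histone gene transcription, 6 and 4 were called in WT and 2, 2 and 5 in TPdh-/-. Of 12 factors of 3′ end processing, 9 and 6 were called in WT and 5, 5 and 7 in TPdh-/-, with Slbp, Ncbp1, Srrt, Cpsf2 and Cpsf3 called in all 5 libraries and Lsm10, Lsm11 and Sympk in none. Among 7 histone chaperones and enzymes that acetylate new histones, 6 and 4 were called in WT and 2, 1 and 5 in TPdh-/-. Of 11 replication-independent histone genes, which are expressed outside S phase as well, 9 and 7 were called in WT and 5, 5 and 8 in TPdh-/-, and H3f3a, Cenpa, H2afy and H1f0 were called in all 5. Of the other 49 protein-coding genes between the first and last histone gene on chromosome 13, 4 and 2 were called in WT and 0, 1 and 3 in TPdh-/-. Of these 49, 36 carry Vmn1r symbols, of vomeronasal receptor genes between the subclusters, and none of the 36 was called in any library. The called genes were Hfe in 4 libraries, Zfp322a in 3, Prss16 in 2 and Abt1 in 1. Within the span of the first subcluster 1, 0, 0, 0 and 1 of 3 such genes were called, and within that of the second 1, 1, 0, 1 and 1 of 6, in the order of WT replicates 1 and 2 and TPdh-/- replicates 1 to 3.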

How the data were processed

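The deposited peak lists of 5 ChIPseq libraries (WT n = 2, TPdh-/- n = 3) were used. The authors aligned reads to GRCm38/mm10 with BWA-mem 0.7.17, kept uniquely mapping reads outside blacklisted regions with Samtools 1.15.1, and called broad peaks for each library with MACS2 2.2.6. The deposited fold enrichment is a linear ratio over the background that MACS2 estimated, and no input control is named in the sources used here. The deposited −log10 q ranked the peaks within a list. The deposited −log10 p served only to order peaks of equal −log10 q where lists were cut to equal length. The display score, deposited by the authors as well, was not used.

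A gene was called by a peak within 1000 bp of its GENCODE coordinates (Python 3.11.15, numpy 2.4.6, pandas 2.3.3). Groups were compared by exact permutation tests, two-sided, with Benjamini-Hochberg adjustment over 4 results. The labels do not name the animal behind each library, so p-values measure the spread between these libraries, which may be technical. The study's legend gives more samples per condition than the 2 and 3 libraries analysed here. Windows of 51 bases from the reference genome were counted with numba 0.67.0, on chromosomes without unplaced sequence. Scripts were tested on simulated data with known answers.

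Members and lists were chosen with earlier results of these data known. Genes named by rule were H1 genes, members outside chromosome 13, members called in no library, and Npat, Slbp, Casp8ap2 and Hinfp. The rule also took members called in both WT libraries and no TPdh-/- library, or in TPdh-/- and not in WT. It further took the genes of the 5 regions of highest mean percentile and the 5 highest divergent pairs. Other members, among them Hist1h2bh, Hist1h3f, Hist1h2be, Hist1h4j, Hist1h4a and Hist1h3a, were named outside this rule, with their values known. Alternatives were another distance (0 or 3000 bp), a minimum −log10 q (2 or 5), lists cut to equal length, members of chromosome 13, a replicate block and each library left out in turn. The start-site rule, members with over 50% unique windows and leaving out Hist1h2be were added after the data were seen. The authors' DiffBind comparison needs reads and was not repeated.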

Additional observations from a re-analysis of the deposited data

How the results depend on the processing

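The number of called members, the number of distinct peaks and their covered length were higher in WT under all alternatives run, and none of the 4 comparisons passed 0.05 under any, as the smallest p is above it. The difference in mean percentile (−2.95, WT minus TPdh-/-) turned to 2.17 with peaks of −log10 q of at least 2 and to 3.22 at 5, and its cause was not tested. WT replicate 1 set the size of the others. Leaving out each library in turn gave differences of 3.67 to 22.7 called members, 2 to 12 peaks, 2.53 to 24.7 kb and −5.83 to −0.0739 in mean percentile, with the lowest without WT replicate 1 and the highest without WT replicate 2. With lists of equal length they were 2.67 members, 0.667 peaks, 5.03 kb and −9.88. On chromosome 13 alone the difference in mean percentile was −8.95, and without Hist1h2be, whose annotation spans 37455 bp and so takes in the peak at Hist1h1e, it was −5.58. Within the 2 kb around start sites, members with over 50% unique windows gave −4.61, and the start-site rule −5.58.

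With the replicate number as a block, for the 2 numbers that both groups have, the differences were 16 members, 9 peaks, 18.2 kb and −2.72 in mean percentile, at the smallest p this allows (0.5, exact permutation test). The labels do not say that the numbers pair the libraries, and WT replicate 1 exceeded WT replicate 2 by 19 members while TPdh-/- replicate 1 was 5 below TPdh-/- replicate 2. No paired analysis was possible for TPdh-/- replicate 3, which has no WT partner.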
